A study of Mus musculus with 37 samples.

Results

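Collagen chain genes encode the polypeptides that wind into the triple helices of collagens, the structural proteins of the extracellular matrix. The set holds every gene of the count table whose symbol is Col, a number, the letter a and a number, which gave 44 of 35542 genes. RNA-seq counts were obtained from tailbuds of 37 mouse embryos at embryonic day 8 to 8.5, 1 library per embryo. The tailbud is the posterior tip that supplies new somites, and it was cut 1.5 somites behind the last somite formed. The study asked whether SMCHD1, a chromatin protein of gene silencing laid down in the oocyte, alters expression in this tissue at matched somite number.

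All embryos were C57BL/6/Cast F1 hybrids with a Castaneus (Cast) father that was Smchd1 +/+. Control embryos, Smchd1wt, were Smchd1 fl/+ and came from Smchd1 fl/fl mothers without the MMTV-Cre transgene, so they carry a floxed allele too. Smchd1matΔ embryos were Smchd1 del/+ and came from Smchd1 del/fl mothers with MMTV-Cre T/+, a Cre under a mammary tumour virus promoter that is active in the oocyte. Their oocytes lacked SMCHD1 and the embryos are also heterozygous, and these effects cannot be told apart here. There were 21 Smchd1wt embryos (4, 4, 3, 3, 4 and 3 at 6, 7, 8, 9, 10 and 11 somites, 13 females and 8 males) and 16 Smchd1matΔ embryos (4, 3, 2, 2, 3 and 2 at those stages, 11 females and 5 males). All embryos with 6 somites were female, as were all Smchd1matΔ embryos with 8 or 9 somites.

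Library totals ran from 3061180 to 80579115 counts in Smchd1wt and from 916444 to 30156555 counts in Smchd1matΔ embryos, and levels between libraries are compared as CPM, counts scaled to a common library total. Smchd1 itself was at 149 ± 23.0 CPM (SD, n = 21) in Smchd1wt and 88.7 ± 13.4 CPM (n = 16) in Smchd1matΔ embryos, a log2 difference of -0.74 (edgeR adjusted p = 1.45e-07). Tailbud genes were present in every library, with T between 100 and 362 CPM and Tbx6 between 12.2 and 59.7 CPM. Smchd1wt replicate 1 at 6 somites held 1351 CPM of a summed parietal endoderm list against 127 to 314 CPM in the other 36 embryos, and Smchd1wt replicate 1 at 10 somites had the lowest presomitic mesoderm sum, 97.7 CPM, where the highest embryo had 413 CPM. Smchd1wt replicate 2 at 6 somites held 212 CPM of a summed maternal decidua list, the highest of the 37 embryos (median 8.98 CPM). Smchd1matΔ replicates 1 and 2 at 6 somites were rich in counts at a ribosomal RNA locus (2.77% and 1.82% of counts). Some of the results that rest on these libraries are given with and without them.

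Fibrillar collagens, types I, II, III, V and XI among them, form the cross-striated fibrils of mesenchyme and cartilage. Type IV collagens form the sheet-like network of basement membranes, on which epithelia such as the neural tube, gut and surface ectoderm rest. FACIT collagens (fibril-associated collagens with interrupted triple helices) sit on the surface of fibrils, type VI forms beaded filaments, and transmembrane collagens span the plasma membrane. Multiplexins are basement membrane collagens with a C-terminal domain that can be cleaved off, and that of Col18a1 is endostatin.

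Type IV genes lie head to head in pairs, transcribed away from each other, and these pairs recur in the results, so the sequences between them are shown. They are RefSeq sequences on GRCm38.p6, written 5′ to 3′ on the strand of the gene named. RefSeq windows from 250 bases before to 50 bases after the start were found for 35 of the 44 genes. Col4a1 (chr8:11198423-11312826, minus strand) and Col4a2 (chr8:11312805-11449287, plus strand) overlap at their starts by 22 bases, which lie in the first exon of both and are shown on the plus strand, chr8:11312805-11312826. The starts of Col4a6 (chrX:141165403-141474076, minus strand) and Col4a5 (chrX:141475385-141689234, plus strand) are 1343 bases apart by RefSeq. The bases shown lie before each gene as placed here, 250 for Col4a6 (chrX:141474077-141474326, minus strand) and 216 for Col4a5 (chrX:141475169-141475384, plus strand). The RefSeq start of Col4a5 lies further on, and its window holds a GGGCGG that is not within the bases shown.
Col4a1 and Col4a2 overlap: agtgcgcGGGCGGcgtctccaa
Col4a6 upstream: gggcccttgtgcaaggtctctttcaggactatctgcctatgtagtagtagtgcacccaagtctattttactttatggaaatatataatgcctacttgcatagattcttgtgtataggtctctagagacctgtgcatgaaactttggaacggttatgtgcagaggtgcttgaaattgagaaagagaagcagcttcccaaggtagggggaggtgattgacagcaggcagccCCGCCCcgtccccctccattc
Col4a5 upstream: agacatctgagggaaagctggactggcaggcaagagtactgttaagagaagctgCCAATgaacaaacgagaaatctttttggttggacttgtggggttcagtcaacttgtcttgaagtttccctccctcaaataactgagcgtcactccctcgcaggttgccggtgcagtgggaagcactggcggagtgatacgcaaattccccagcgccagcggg
Capitals mark the CCAAT box and the GC box GGGCGG on either strand, so that CCGCCC is the GC box of the other strand. In the first window listed for each of the 12 expressed chains that have one, GGGCGG on either strand was found for 9 and CCAAT for 5, against 35.7% and 37.4% of all 32851 windows. TATAAA was found for 2 of the 12, against 13.6%. Col18a1 and Col9a1 have a second start, and the second window of Col9a1 holds CCAAT. These matches describe the letters only.

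Which chains were expressed was asked first. Levels are given as RPKM, which is CPM per kilobase of exon, and a chain with a median of at least 1 RPKM over the 37 embryos was called expressed. By this measure 17 of 44 chains were expressed, and the basement membrane collagens stood highest. Chain counts made up 0.102% of all counts in the median embryo (0.0691 to 0.230%, or to 0.139% without Smchd1wt replicate 1 at 6 somites).

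Among basement membrane chains, Col4a1, the α1 chain of the ubiquitous type IV network, had the highest median of all 44, 32.1 RPKM (21.9 to 170.5). Its partner Col4a2 was at 14.3 RPKM (9.70 to 80.3). The X-linked chains Col4a5 and Col4a6, which assemble into a further type IV network of some basement membranes, were at 10.9 RPKM (7.59 to 14.5) and 6.98 RPKM (3.44 to 9.66). Col4a3 and Col4a4, chains known from the kidney glomerulus, had 56 and 51 counts in all 37 libraries together. The multiplexin Col18a1 ranked next to Col4a1 with 27.3 RPKM (20.3 to 39.4), while the related Col15a1 had a median of 0.00974 RPKM. Type IV chains made up 48.5% of the summed chain RPKM in the median embryo, and Col18a1 with Col15a1 20.6%. The type IV share ran from 40.0 to 82.7%, and its highest value without Smchd1wt replicate 1 at 6 somites was 53.1%.

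Fibrillar chains made up 19.9% of the sum (6.25 to 38.0%, or from 14.03% without Smchd1wt replicate 1 at 6 somites), with 7 of 11 expressed. Col1a2 and Col1a1, the chains of type I collagen, had medians of 5.15 RPKM (2.98 to 10.8) and 5.002 RPKM (1.77 to 21.5). Col5a2 and Col5a1, which nucleate type I fibrils, were at 3.80 RPKM (1.82 to 7.38) and 3.02 RPKM (1.68 to 4.75). Col3a1, the chain of type III collagen in soft tissue, was at 3.19 RPKM (1.62 to 18.9), Col27a1 at 1.96 RPKM and Col2a1, the cartilage and notochord sheath collagen, at 1.31 RPKM (0.754 to 2.45). Just under the threshold stood Col24a1 at 0.794 RPKM and Col11a1, a partner of type II collagen, at 0.671 RPKM. The highest values of Col1a1, Col1a2, Col3a1, Col5a1 and Col5a2 all came from Smchd1wt replicate 1 at 10 somites.

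Of the other classes, Col13a1, a transmembrane collagen, was at 3.98 RPKM (2.71 to 5.16), and Col23a1, of the same class, at 2.10 RPKM (0.570 to 4.21). The FACIT chain Col9a1 was at 3.06 RPKM (1.95 to 4.77), and its partners in type IX collagen, Col9a3 and Col9a2, were at 1.02 and 0.130 RPKM. Col9a3 shares exon sequence with Tcfl5 on the opposite strand, and the kit of each library is not stated, so its counts are uncertain. Col26a1 was at 1.21 RPKM. None of the 6 type VI chains was expressed, Col6a1 being highest with 0.377 RPKM, nor was the anchoring fibril chain Col7a1 at 0.319 RPKM. Low or absent were Col8a1, Col10a1, Col6a4, Col6a5, Col19a1 and Col28a1, each with a median of 0 RPKM. Col28a1 had 0 counts in the 37 libraries, where a count of 0 allows up to 3 counts per library, and Col19a1 had 2 counts in all. Counts of 0 cover counting error only, since reads were not tagged as molecules. The remaining chains lay between these and 0.5 RPKM. They were the fibrillar chains Col11a2 (0.212 RPKM) and Col5a3 (0.0141), the FACIT chains Col22a1 (0.360), Col14a1 (0.307), Col16a1 (0.206), Col12a1 (0.0814) and Col20a1 (0.0202), the type VI chains Col6a2 (0.282), Col6a3 (0.0520) and Col6a6 (0.0255), the transmembrane chains Col25a1 (0.152) and Col17a1 (0.0562), and the short-chain Col8a2 (0.207). Levels depend on the length used. Over the longest coding transcript in place of all exons, Col1a2 was at 11.97 RPKM, Col26a1 at 3.54 RPKM and Col11a1 at 1.12 RPKM.

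**Figure D1:**
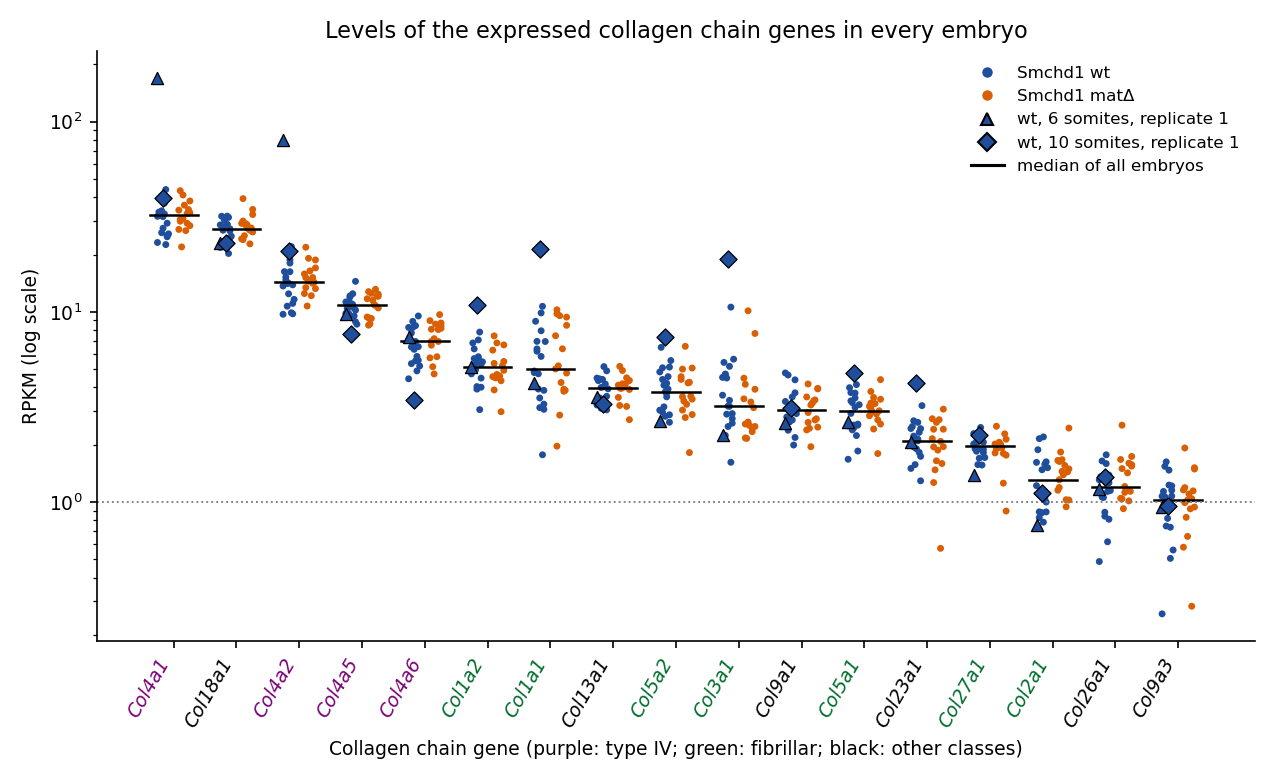
RPKM (log axis) of the 17 expressed collagen chain genes in order of median, 1 point per embryo, Smchd1wt in blue and Smchd1matΔ in orange, with a bar at the median of all 37 embryos and a dotted line at 1 RPKM. Triangles and diamonds mark Smchd1wt replicate 1 at 6 and at 10 somites, and the triangles stand far above the other points for Col4a1 (170.5 RPKM) and Col4a2 (80.3 RPKM).

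Smchd1wt replicate 1 at 6 somites had 170.5 RPKM of Col4a1 and 80.3 RPKM of Col4a2, 5.02 and 4.94 times the median of the other embryos with 6 somites (33.96 and 16.2 RPKM). The other basement membrane chains did not share this height, with Col18a1 at 22.9, Col4a5 at 9.77 and Col4a6 at 7.34 RPKM, each lower than the median of the others at that stage. The same library had 646 CPM of Lama1 (37.7 to 98.8 CPM in the other 36), 663 CPM of Lamb1 (144 to 228) and 968 CPM of Lamc1 (191 to 365), the chains of laminin-111. Parietal endoderm markers were high there too, with Sparc at 562 CPM (42.4 to 234), Pth1r at 91.1 CPM (7.40 to 38.1) and Thbd at 27.3 CPM (0 to 9.82).

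Smchd1wt replicate 1 at 10 somites had 18.9 RPKM of Col3a1, 4.79 times the median of the other embryos with 10 somites, and 21.5 RPKM of Col1a1, 3.88 times that median. In bulk tissue, fewer cells of a type and less RNA per cell cannot be told apart.

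Whether chain levels followed somite number was tested in the 21 Smchd1wt embryos as a slope per somite, with sex as a covariate. Fibrillar chains Col5a2, Col11a1 and Col2a1 rose with somite number, and the X-linked type IV chains Col4a5 and Col4a6 fell. These were 3 rising and 2 falling of 31 chains tested, where 3.13% of all 15148 genes tested rose and 3.51% fell (edgeR, adjusted p under 0.05). At unadjusted p under 0.05 there were 13 chains, 8 rising and 5 falling, against 21.4% of all genes. The other 13 chains had too few counts for a test.

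Col5a2 had 2.66, 2.87, 3.57 and 3.16 RPKM in the 4 Smchd1wt embryos with 6 somites and 5.54, 3.92 and 3.80 RPKM in the 3 with 11 somites. The groups do not overlap, and the highest stage mean was 5.60 ± 1.19 RPKM (SD, n = 4) at 10 somites. Its slope was 0.17 on the log2 scale per somite (SE 0.0387, 95% interval 0.09 to 0.25, edgeR adjusted p = 0.00877). Without the library high in fibrillar chains, Smchd1wt replicate 1 at 10 somites, the slope was 0.15 (adjusted p = 0.00619).

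Col11a1 had 0.467, 0.418, 0.657 and 0.472 RPKM at 6 somites and 0.671, 0.887 and 0.867 RPKM at 11 somites. Every embryo with 11 somites was above every embryo with 6 or 7 somites, and the slope was 0.18 (SE 0.0400, interval 0.09 to 0.26, edgeR adjusted p = 0.00879). Col2a1 had 0.754, 0.998, 1.13 and 1.08 RPKM at 6 somites and 1.51, 1.58 and 1.48 RPKM at 11 somites. Its change lay between 8 and 9 somites, with stage means of 0.991, 0.943 and 0.916 RPKM up to 8 somites and 1.74, 1.63 and 1.52 RPKM from 9 somites. The slope of Col2a1 was 0.19 (SE 0.0451, interval 0.09 to 0.28, edgeR adjusted p = 0.0132). These 3 rising chains passed the threshold when any 1 of the 21 embryos was left out. Among embryos with 7 to 11 somites alone no chain passed (edgeR adjusted p of 0.236 for Col5a2, 0.240 for Col11a1 and 0.169 for Col2a1).

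Col4a5 had 9.77, 14.5, 12.4 and 11.96 RPKM in Smchd1wt embryos with 6 somites and 8.60, 7.59 and 10.9 RPKM in those with 11 somites, groups that overlap. Its slope was -0.08 on the log2 scale per somite (SE 0.0217, interval -0.12 to -0.03, edgeR adjusted p = 0.0376). Col4a6 had 7.34, 9.50, 8.45 and 8.90 RPKM at 6 somites and 5.19, 4.89 and 6.55 RPKM at 11 somites, which do not overlap, with a slope of -0.09 (SE 0.0274, interval -0.15 to -0.03, edgeR adjusted p = 0.0477). Col4a5 passed in 12 and Col4a6 in 8 of the 21 fits without 1 embryo, with adjusted p of 0.111 and 0.133 without Smchd1wt replicate 2 at 11 somites. Neither passed without Smchd1wt replicate 2 at 6 somites either. That library held the highest value of each chain among Smchd1wt embryos, and the highest maternal decidua sum. The embryos with 6 somites were all female, and without sex in the fit Col4a6 did not pass.

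Col4a1 and Col4a2 had steeper estimates, both -0.21 (edgeR adjusted p = 0.0909 and 0.107), which did not pass. Both rest on Smchd1wt replicate 1 at 6 somites, without which both were -0.03 (adjusted p = 0.626 and 0.750). Without Smchd1wt replicate 1 at 10 somites they passed (-0.22 and -0.24, adjusted p = 0.0446 and 0.0474), as did Col13a1 (0.09, adjusted p = 0.0193), which was at 0.08 with adjusted p = 0.0565 in all embryos. Col9a3 was at -0.13 (adjusted p = 0.161) and Tcfl5, which overlaps it, at -0.23 (adjusted p = 1.26e-05). All 4 type IV chains tested had a negative slope in Smchd1wt (median -0.15), and 7 of 10 fibrillar chains tested a positive one (median 0.10), where the median over all genes was 0.00. Markers of other tissues moved with stage as well. In the parietal endoderm list all 5 genes had negative slopes (median -0.25, Plat called at -0.23), but 3 of 5 without Smchd1wt replicate 1 at 6 somites (median -0.06). All slopes were negative in the visceral endoderm list of 6 genes (median -0.62, Apob at -0.78 and Ttr at -0.65 called), and in the endothelium list 5 of 6 were positive (Emcn at 0.71, Tie1 at 0.18 and Cdh5 at 0.16 called). In the maternal decidua list 2 of 3 slopes were negative, and both were called (Prl8a2 at -0.94 and Cryab at -0.41). The part of these lists in the slopes of collagen chains was not tested.

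**Figure D2:**
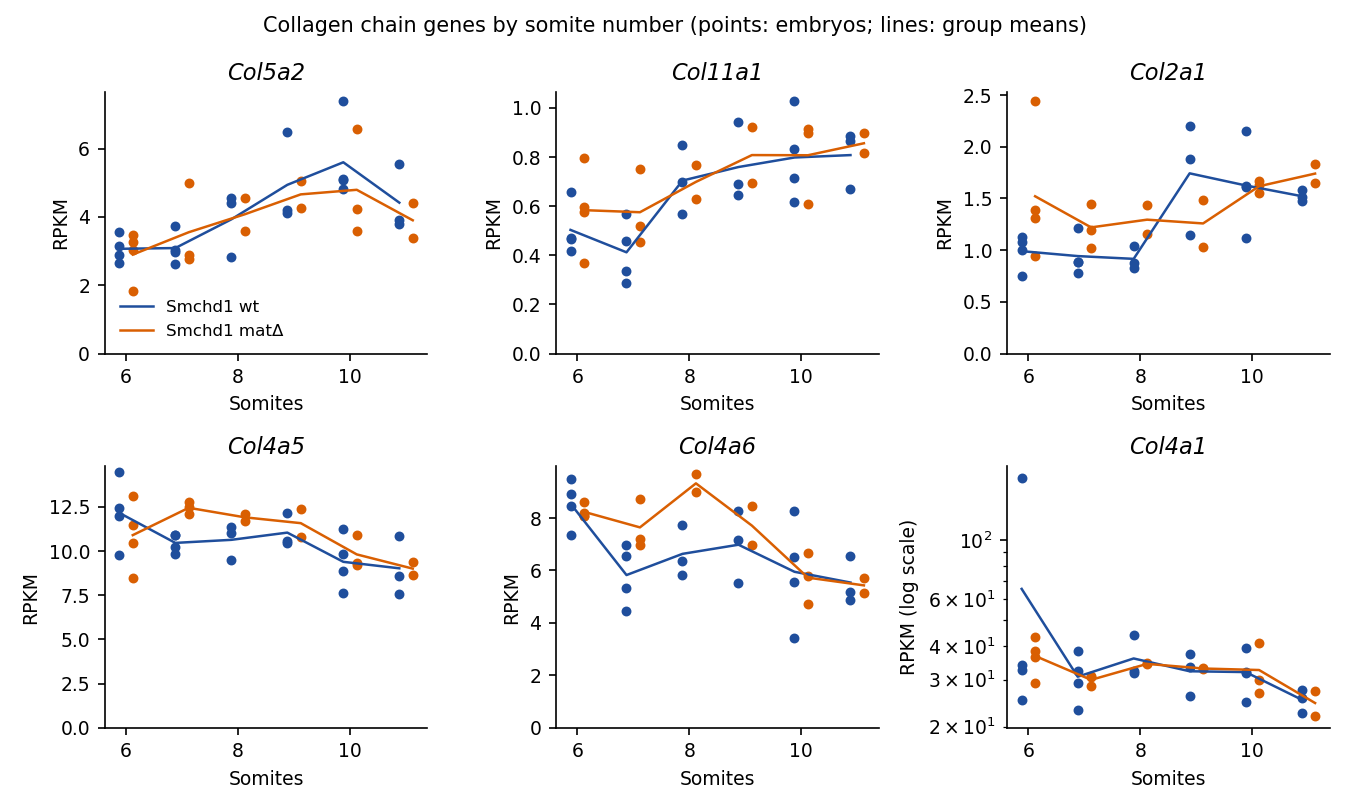
RPKM against somite number for 6 chains, 1 point per embryo and lines through the group means, Smchd1wt in blue and Smchd1matΔ in orange (log axis for Col4a1 only). In Smchd1wt embryos the stage means of Col5a2, Col11a1 and Col2a1 are higher at 9 to 11 than at 6 or 7 somites, those of Col4a5 and Col4a6 are lower at 11 than at 6 somites, and 1 embryo with 6 somites stands alone for Col4a1.

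In the 16 Smchd1matΔ embryos, which share no library with the Smchd1wt fit, Col4a6 was the 1 chain of 31 tested that passed. It fell by 0.10 on the log2 scale per somite (SE 0.0248, interval -0.15 to -0.04, edgeR adjusted p = 0.0406), from 8.09, 8.18, 8.06 and 8.61 RPKM at 6 somites to 5.14 and 5.72 RPKM at 11 somites. Its stage means from 6 to 11 somites were 8.24, 7.64, 9.32, 7.71, 5.73 and 5.43 RPKM, so the highest was at 8 somites. The embryos with 6 somites were all female, and the lower value at 11 somites came from a male. In Smchd1matΔ embryos 1.93% of all 15477 genes tested rose and 1.14% fell. At unadjusted p under 0.05 there were 10 chains, 3 rising and 7 falling, against 17.5% of all genes. Col4a6 passed in 8 of the 16 fits without 1 embryo (adjusted p = 0.175 without Smchd1matΔ replicate 2 at 11 somites), and it did not pass in females alone.

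Next by p-value were Col18a1 at -0.07 (edgeR adjusted p = 0.132) and Col6a1, a type VI chain, at -0.25 (edgeR adjusted p = 0.137), neither of which passed. Col4a5 was at -0.06 (adjusted p = 0.280) and passed without the libraries rich in ribosomal RNA (-0.10, adjusted p = 0.0194). The chains that rose in Smchd1wt had slopes of 0.10 for Col5a2, 0.13 for Col11a1 and 0.03 for Col2a1 (edgeR adjusted p of 0.269, 0.159 and 0.793). The type IV chains were again all negative (median -0.07), and 6 of 10 fibrillar chains were positive (median 0.05).

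The difference in slope between genotypes was tested directly, and 0 of 32 chains passed (0% of 15978 genes, edgeR). At unadjusted p under 0.05 there was 1 chain, against 3.92% of all genes, and DESeq2 called 0 chains. Col2a1 came closest, with a slope lower by 0.15 in Smchd1matΔ embryos (interval -0.28 to -0.01, unadjusted p = 0.0333, edgeR adjusted p = 1). Col4a1 and Col4a2 followed with differences of 0.15 (interval -0.03 to 0.34) and 0.14 (interval -0.06 to 0.34), which turned to -0.04 and -0.06 without Smchd1wt replicate 1 at 6 somites. For Col4a6 the difference was 0.00, with an interval of -0.08 to 0.08.

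**Figure D3:**
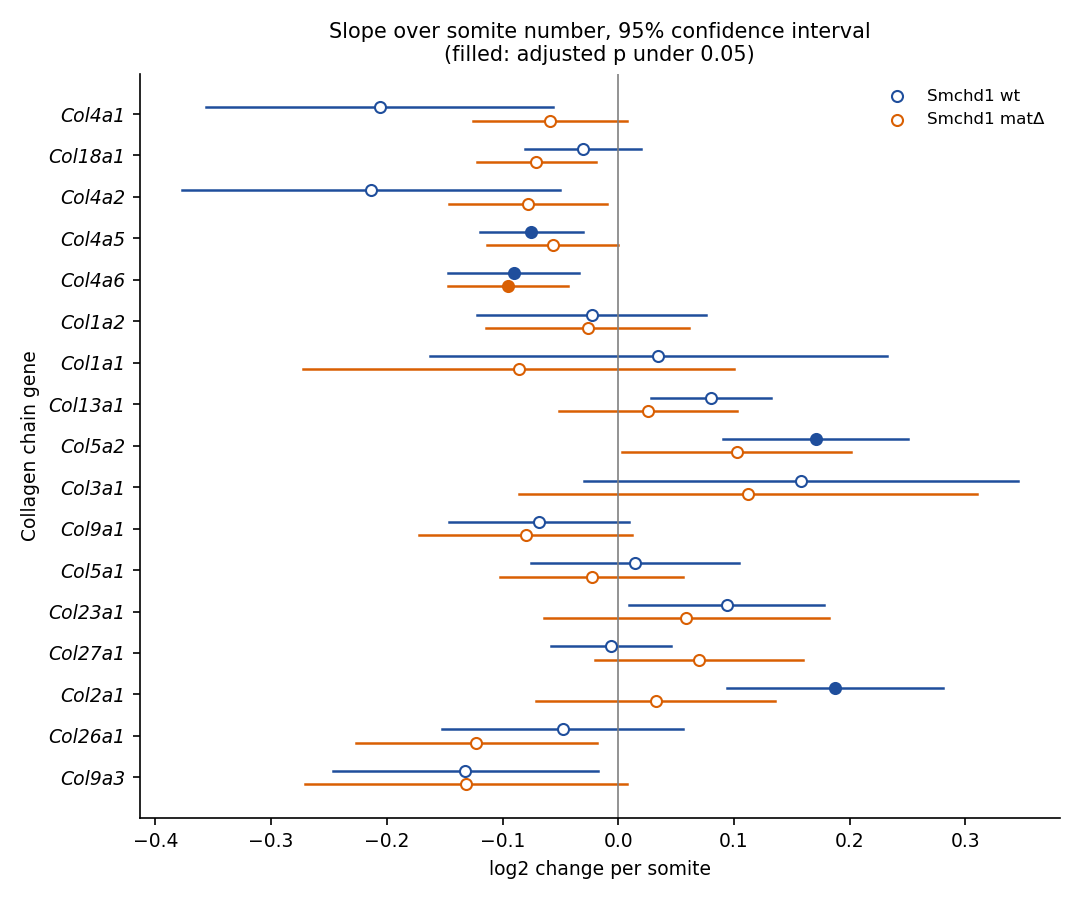
Slope on somite number (log2 change per somite) of the 17 expressed collagen chain genes in Smchd1wt (blue) and Smchd1matΔ embryos (orange), with bars for the 95% interval and filled points for adjusted p under 0.05. Filled points are Col5a2 and Col2a1 above 0 and Col4a5 and Col4a6 below 0 in Smchd1wt, and Col4a6 below 0 in Smchd1matΔ embryos, and Col11a1, which lies under 1 RPKM, is not drawn.

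Genotype was compared at matched somite number with sex as a covariate, in all embryos and in the windows of 6 to 8 and 9 to 11 somites. No collagen chain passed the threshold in any of these by edgeR, and DESeq2 called Col2a1 at 6 to 8 somites. Over all stages 0 of 32 chains tested were called by edgeR or by DESeq2, where edgeR called 0.0125% of 15978 genes, Smchd1 among them. At unadjusted p under 0.05 there were 2 chains, against 5.67% of all genes, and 18 estimates were positive and 14 negative (median 0.04).

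The smallest p-values over all stages belonged to Col2a1 (log2 difference 0.25, interval 0.02 to 0.48), Col11a2 (0.38, interval 0.01 to 0.75) and Col4a6 (0.12, interval -0.01 to 0.25), with edgeR adjusted p of 0.867, 0.867 and 0.868. For Col18a1 the interval of the difference was -0.01 to 0.24, for Col4a5 -0.07 to 0.17, for Col4a1 -0.51 to 0.13 and for Col1a1 -0.44 to 0.50. Without Smchd1wt replicate 1 at 6 somites the interval of Col4a1 was -0.11 to 0.20.

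At 6 to 8 somites 0 of 31 chains were called by edgeR, as were 0.00639% of 15652 genes, the 1 gene being Smchd1. There were 3 chains at unadjusted p under 0.05 against 7.77% of all genes, namely Col2a1, Col18a1 and Col4a6, all higher in Smchd1matΔ embryos. Col2a1 in Smchd1wt embryos was at 0.754, 0.998, 1.13 and 1.08 RPKM at 6 somites, 0.887, 1.22, 0.886 and 0.782 RPKM at 7 and 1.04, 0.878 and 0.827 RPKM at 8 somites. In Smchd1matΔ embryos it was at 1.31, 2.45, 0.943 and 1.39 RPKM at 6 somites, 1.45, 1.19 and 1.02 RPKM at 7 and 1.15 and 1.44 RPKM at 8 somites. The groups overlap at 6 and 7 somites and do not at 8 somites. Col4a1 and Col4a2 differed by -0.39 (interval -0.93 to 0.15) and -0.36 (interval -0.93 to 0.21) in this window, and by 0.07 and 0.11 without Smchd1wt replicate 1 at 6 somites.

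The difference in Col2a1 was 0.60 on the log2 scale (SE 0.146, interval 0.30 to 0.90, unadjusted p = 0.000422, edgeR adjusted p = 0.320). DESeq2 gave 0.61 and called it (adjusted p = 0.0303). By edgeR it did not pass in any of the 20 fits without 1 embryo, where adjusted p ran from 0.152 to 0.727, and over the alternatives, DESeq2 included, it ran from 0.0303 to 0.921. Its highest value, 2.45 RPKM, came from Smchd1matΔ replicate 2 at 6 somites, the library with the highest summed somite and sclerotome list (52.9 CPM). Over the 3 somite genes tested the median difference at 6 to 8 somites was 1.499, while the 6 visceral and 5 parietal endoderm genes all had negative estimates (medians -0.58 and -0.49). Without Smchd1wt replicate 1 at 6 somites the median of the parietal list turned to 0.15, with 4 of 5 genes positive, and those of the somite and visceral lists were 1.32 and -0.63. The part of these lists in the estimate for Col2a1 was not tested. The correlation of Col2a1 with the somite and sclerotome list, computed as for the marker lists below, did not pass (r = 0.514, rho = 0.064). Without Smchd1matΔ replicates 2 and 3 at 6 somites r was 0.063. Col18a1 and Col4a6 differed by 0.19 and 0.17 (edgeR adjusted p = 0.592 and 0.622).

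At 9 to 11 somites 0 of 32 chains were called by edgeR or DESeq2, and 0 were at unadjusted p under 0.05, where 0.00635% of 15757 genes were called and 1.88% were at unadjusted p under 0.05. The smallest p-values were those of Col6a1 at -0.35, Col9a2 at 0.60 and Col5a2 at -0.18 (edgeR adjusted p = 1 for each), and Col2a1 was at -0.09. The difference between the windows was tested as an interaction and gave 0 calls of 32 chains by edgeR and DESeq2 (0% of 16265 genes). At unadjusted p under 0.05 there were 2 chains, against 3.55% of all genes. These were Col2a1, whose genotype difference was lower by 0.68 at 9 to 11 somites (interval -1.11 to -0.26, unadjusted p = 0.00248, edgeR adjusted p = 1), and Col13a1, lower by 0.30 (unadjusted p = 0.0457). The third by p-value was Col18a1 at -0.17 (unadjusted p = 0.167).

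**Figure D4:**
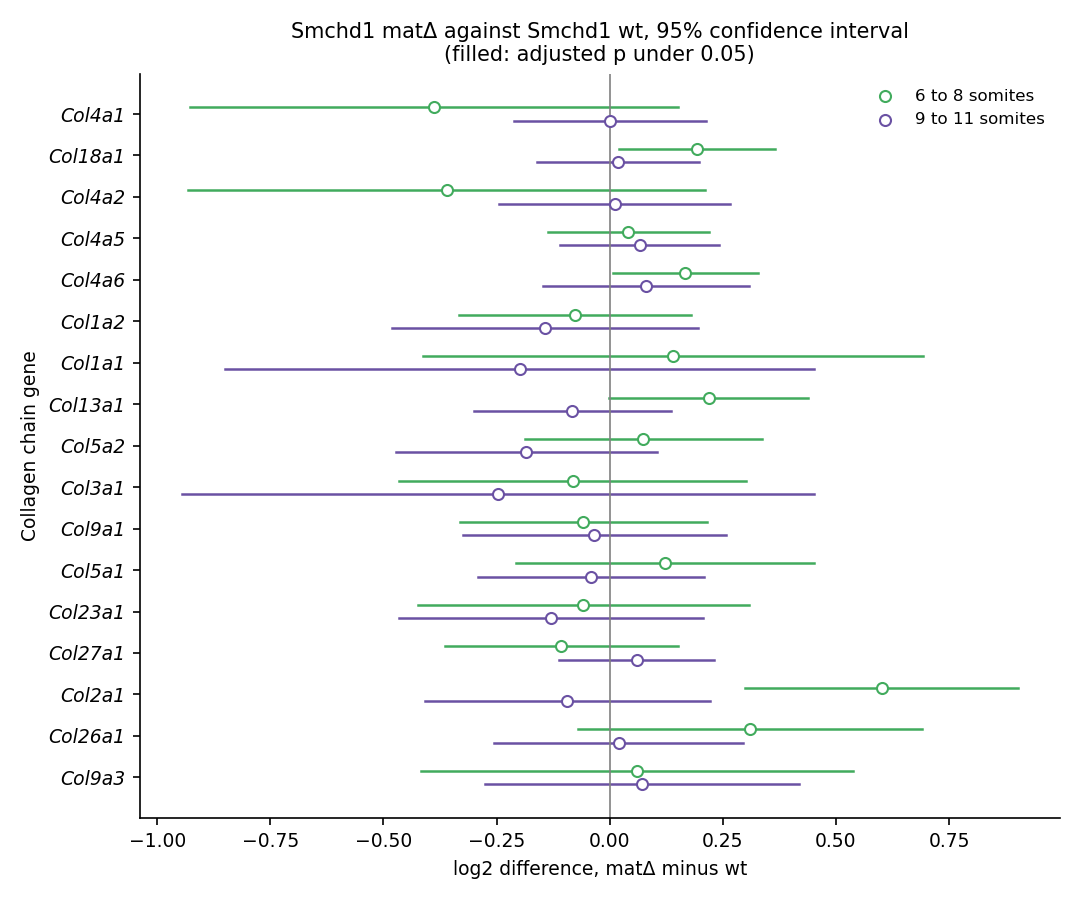
Log2 difference of Smchd1matΔ from Smchd1wt embryos for the 17 expressed collagen chain genes at 6 to 8 somites (green) and 9 to 11 somites (purple), with bars for the 95% interval. All points are open, since no chain passed adjusted p under 0.05, and the interval of Col2a1 at 6 to 8 somites runs from 0.30 to 0.90.

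Sex was compared after the values had been seen, because Kdm5c, an X-linked gene known to escape X inactivation, had the group-centred profile most like that of Col4a6. Col4a6 was lower in males, with 5.43 RPKM (median, 3.44 to 6.55, n = 8) in Smchd1wt males and 7.34 RPKM (4.89 to 9.50, n = 13) in Smchd1wt females. In Smchd1matΔ embryos the medians were 5.80 RPKM in 5 males (4.71 to 7.22) and 8.18 RPKM in 11 females (5.72 to 9.66). The groups overlap in each genotype. With stage and genotype in the fit the difference of males from females was -0.40 on the log2 scale (SE 0.0764, interval -0.55 to -0.24, edgeR adjusted p = 0.00454). In the same fit all 5 presomitic mesoderm and all 6 notochord genes had negative estimates (medians -0.19 and -0.11), and all 6 visceral endoderm and all 5 primitive erythroid genes positive ones (medians 0.80 and 0.87), none of them called. Their part in the difference of Col4a6 was not tested. It was the 1 chain called lower of 32 tested, where 0.138% of 15978 genes were called lower in males and 0.0814% higher. At unadjusted p under 0.05 there were 5 chains, against 3.3% of all genes.

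The call held in all 37 fits without 1 embryo and, among embryos with 7 to 11 somites alone, with the same estimate (-0.40, edgeR adjusted p = 0.0122). It was lost with the replicate block (-0.49, edgeR adjusted p = 0.976), and whether equal replicate numbers pair the embryos is not known. Within a genotype the estimates were -0.45 in Smchd1wt and -0.27 in Smchd1matΔ embryos, and neither passed (edgeR adjusted p = 0.539 and 1). Kdm5c and Kdm6a, which escape X inactivation, differed by -0.34 and -0.74 in the same fit (edgeR adjusted p = 0.00117 and 3.4e-09). Col4a5, the head-to-head neighbour of Col4a6, had medians of 10.9 RPKM in Smchd1wt females and 10.0 RPKM in males, and 11.5 and 10.9 RPKM in Smchd1matΔ embryos, and did not pass. Next by p-value came Col6a3, a type VI chain, at 1.54 and Col3a1 at 0.69, higher in males and not past the threshold (edgeR adjusted p = 0.169 and 0.814). DESeq2 called Col6a3 (adjusted p = 0.0339), a chain with a median of 0.0520 RPKM. Its highest values came from the males Smchd1wt replicate 1 at 8 somites (0.498 RPKM) and at 10 somites (0.228 RPKM). The next was that of a male too, Smchd1matΔ replicate 2 at 10 somites (0.163 RPKM).

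Chains that assemble together were compared across embryos. Log2 values were centred on each genotype and stage group, so the correlations describe differences between embryos of 1 group, and p-values come from 100000 permutations within groups, adjusted over 13 pairs. Pearson and Spearman coefficients both passed for 6 pairs. All points share library depth and tissue makeup, and embryos are the units (n = 37).

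Col4a1 and Col4a2 varied almost in step (r = 0.983, rho = 0.963, adjusted permutation p = 4.33e-05 and 6.5e-05, from the smallest p that these permutations can give). Without the 2 embryos farthest from the median of Col4a1, r was 0.956. Of 16728 genes, Col4a2 ranked 1 in likeness to Col4a1, and the Col4a1 level was 2.17 times that of Col4a2 in RPKM, with a range of 1.88 to 2.58 over embryos. The pair of the X chromosome was looser, with r = 0.633 and rho = 0.638 for Col4a5 and Col4a6 (adjusted permutation p = 0.000325 and 0.00106, r = 0.532 without the 2 farthest) and a ratio between 1.05 and 2.21. Col4a6 ranked 27 in likeness to Col4a5.

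Col1a1 and Col1a2 gave r = 0.936 and rho = 0.916 (adjusted permutation p = 4.33e-05 and 6.5e-05, r = 0.909 without the 2 farthest), and Col1a2 ranked 1 for Col1a1. Their ratio ranged from 0.506 to 1.99, wider than that of Col4a1 to Col4a2. Col5a1 with Col5a2 (r = 0.701, rho = 0.694), Col3a1 with its genomic neighbour Col5a2 (r = 0.711, rho = 0.671) and Col1a1 with Col3a1 (r = 0.812, rho = 0.681) passed by both coefficients. Their adjusted permutation p were 0.000156 and 0.000325, 4.33e-05 and 0.00026, and 9.75e-05 and 0.00106, and r was 0.707, 0.683 and 0.719 without the 2 farthest embryos. In likeness, Col5a2 ranked 87 for Col5a1 and 151 for Col3a1, and Col3a1 ranked 30 for Col1a1.

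Col2a1 was not shown to vary with its fibril partners Col11a1 (r = 0.145, rho = 0.099) or Col9a1 (r = -0.097, rho = -0.109). Type IX chains did not pass together either, with r of 0.151 for Col9a1 and Col9a2, -0.187 for Col9a1 and Col9a3, and -0.480 for Col9a2 and Col9a3, where Pearson's r passed (adjusted permutation p = 0.0314) and Spearman's rho did not (rho = -0.413, adjusted permutation p = 0.0524), and r was -0.173 without the 2 farthest. Col6a1 and Col6a2 gave r = -0.025. Col4a1 with Col18a1 rested on single libraries, since r was 0.034 in all embryos and 0.640 without Smchd1wt replicate 1 at 6 somites and Smchd1matΔ replicate 1 at 11 somites. Col4a3 with Col4a4 and Col8a1 with Col8a2 had too few counts for this comparison.

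**Figure D5:**
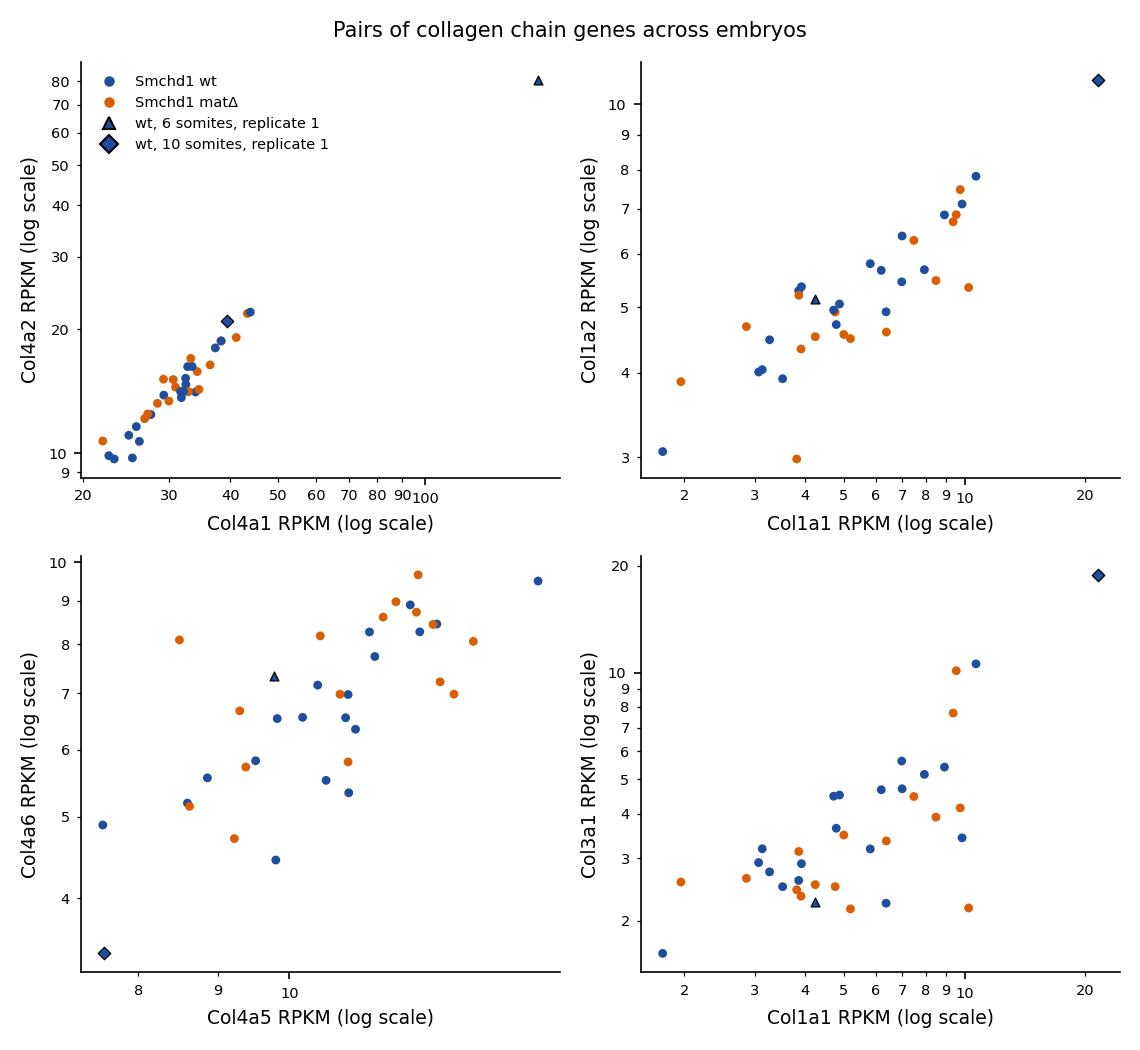
RPKM of 4 pairs of chains on log axes, 1 point per embryo, Smchd1wt in blue and Smchd1matΔ in orange, without the centring used for the coefficients. Col4a1 with Col4a2 lies close to a line that ends in Smchd1wt replicate 1 at 6 somites (triangle), Col1a1 with Col1a2 and with Col3a1 end in Smchd1wt replicate 1 at 10 somites (diamond), and Col4a5 with Col4a6 scatters more widely.

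The genes most like the abundant chains, by Pearson's r of group-centred log2 values over 37 embryos, depended on Smchd1wt replicate 1 at 6 somites for Col4a1 and Col4a2. In all embryos, for Col4a1 they were Col4a2, Nid1 (0.90), Lamb1 (0.885), Lama1 (0.885) and Sparc (0.862), the nidogen, laminin and collagen-binding genes of basement membranes. Without Smchd1wt replicate 1 at 6 somites they included Col4a2 (0.954), Espn, Itpr3 and Prss8, and Nid1, the laminins and Sparc were not among the 5 most alike. For Col4a2 they were Col4a1, Sparc (0.883), Nid1 (0.863), Ckap4 and Islr2, and Sparc and Nid1 were not among the 5 most alike without that library. For Col1a2 they were Col1a1, Acta2 (0.869), Col5a2 (0.867), Tex264 and Col3a1 (0.854). Col18a1 was most like Git1 (0.815), Ttll12, Unc45a, Eef2 and Vars, Col4a5 most like Dcun1d3 (0.728), Col24a1 (0.695), Sh3gl2, Spg20 and Gtf3c4, and Col4a6 most like Kdm5c (0.739), Vash2, Gm26992, Terf2ip and Traf3.

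Chain levels were also set against the summed CPM of 12 marker lists, a comparison added after the data were seen (204 pairs, 34 past the adjusted threshold by both coefficients). Col4a1 moved with the parietal endoderm list (r = 0.966, rho = 0.912, r = 0.875 without the 2 farthest embryos, adjusted permutation p = 0.00051 and 0.00068). That list holds Lama1 and Sparc, genes which other basement membranes express too. Col4a1 also passed by both coefficients with the definitive gut endoderm (r = 0.448), surface ectoderm (r = 0.395) and visceral endoderm lists (r = 0.316). Col1a1 moved with the surface ectoderm list, Krt8, Krt18, Tfap2a and Grhl3 (r = 0.875, rho = 0.895, r = 0.886 without the 2 farthest, adjusted permutation p = 0.00051 and 0.00068), and against the notochord list (r = -0.771, rho = -0.703, r = -0.645, adjusted permutation p = 0.00688 and 0.00785). Col1a1 also passed by both coefficients with the lateral and extraembryonic mesoderm (r = 0.612), definitive gut endoderm (r = 0.606) and maternal decidua lists (r = 0.575). It passed too with the parietal endoderm list (r = 0.41) and against the presomitic mesoderm list (r = -0.679). The pairs named are some of the 34. Col3a1 moved with the visceral endoderm list (r = 0.727, rho = 0.623, r = 0.725, adjusted permutation p = 0.0116 and 0.0276). It also passed against the presomitic mesoderm list (r = -0.649). Col13a1 moved with the presomitic mesoderm list (r = 0.605, rho = 0.60, r = 0.529, adjusted permutation p = 0.00884 and 0.00785). It also passed against the maternal decidua list (r = -0.435). The part of these lists in the levels of these chains was not tested.

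Genes that modify, export, cleave, crosslink, bind and degrade collagen were counted in the same fits, 81 in all. In Smchd1wt embryos 3 of 71 tested rose and 4 fell with somite number (edgeR), near the 3.13% and 3.51% of all genes. Mmp9, a gelatinase, rose by 0.29 per somite, Tll2, a protease of the procollagen C-proteinase family, by 0.57 and Loxl2, which crosslinks type IV collagen, by 0.14 on the log2 scale. Lower with stage were Sec24d, a coat protein of procollagen export, at -0.25, Adamts2, which removes the N-propeptide of fibrillar procollagens, at -0.34, the proline hydroxylase subunit gene P4ha2 at -0.10, and Nid2, a nidogen, at -0.08. In Smchd1matΔ embryos 2 of 73 rose and 3 fell, where 1.93% and 1.14% of all genes did. Loxl2 rose by 0.17 and P4ha3, a further proline hydroxylase subunit gene, by 0.41, and Adamts2 at -0.37, Nid2 at -0.10 and Mmp15, a membrane-bound metalloproteinase, at -0.10 fell. Loxl2, Adamts2 and Nid2 passed in both, and the share of all genes that passed in both is not given here. No gene of these lists was called between genotypes in edgeR, with 3 of 75 at unadjusted p under 0.05 over all stages, 7 of 72 at 6 to 8 somites and 1 of 75 at 9 to 11 somites, against 5.67%, 7.77% and 1.88% of all genes.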

How the data were processed

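Libraries were poly(A) TruSeq libraries, stranded or unstranded, and which library used which kit is not given in the sources used here. The submitters' processing notes name bcl2fastq, Trim Galore 0.4.4, HISAT2 2.0.5 and GRCm38.p6, and the authors quantified raw counts per gene in SeqMonk. The deposited counts were used. A table of log2 RPKM for Hox genes and the authors' comparison table (p-values, FDR and log2 fold changes) were not used. Of 35591 entries in the count table, 49 with a repeated identifier were dropped and 26 names turned into dates were restored. Without strand, reads of overlapping genes on opposite strands cannot be separated.

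Each library is a separate embryo, and no library pair of a group agreed within sampling noise (chi-square per degree of freedom 5.12 to 72.3 over 42 pairs). Genes were filtered with filterByExpr (minimum count 10), scaled by TMM and tested in edgeR 4.0.16 (R 4.3.3, limma 3.58.1) with the quasi-likelihood test and Benjamini-Hochberg adjustment over all genes tested, at 0.05. Fits used somite number and sex as covariates where they were not the quantity tested. CPM and RPKM used TMM-scaled library sizes, RPKM used the union of exons, and correlations used log2 CPM with a prior count of 2. DESeq2 1.42.0 and the other alternatives are given in the closing section. The fits were tested on simulated data.

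Values are given for each chain past the threshold in any comparison, for the 12 chains with the highest median, and for the 3 smallest p where fewer than 3 passed, and for the fixed lists for genes past the threshold, at most 8 by p. For 6 abundant chains the 5 most alike genes are named, apart from 1 item that is not reported here. Other chains and marker genes named were chosen after their values were seen. The members and lists were chosen with earlier results of these data known. The sex comparison, the fits without libraries holding other tissue, the marker lists without Smchd1wt replicate 1 at 6 somites, the coding-length levels and the marker list correlations were added after seeing the data.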

Additional observations from a re-analysis of the deposited data

Results flagged for a closer look

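Within the 4 groups of 4 embryos, the gap of the highest or lowest embryo to its nearest neighbour was divided by the range of the group for the 17 expressed chains. Of 68 such sets of values 9 had a ratio above Dixon's 95% limit, and chance alone marks about 1 in 20. In Smchd1wt replicate 1 at 6 somites Col4a1 (170.5 RPKM, ratio 0.940) and Col4a2 (80.3 RPKM, ratio 0.908) stood above the others. In Smchd1wt replicate 1 at 10 somites Col3a1 (18.9 RPKM, ratio 0.890), Col5a2 (7.38 RPKM, ratio 0.886), Col23a1 (4.21 RPKM, ratio 0.863) and Col1a1 (21.5 RPKM, ratio 0.830) stood above the others. In Smchd1wt replicate 2 at 6 somites Col9a1 was highest (4.39 RPKM, ratio 0.944) and Col23a1 lowest (1.29 RPKM, ratio 0.927). Col1a2 was highest in Smchd1wt replicate 4 at 7 somites (7.11 RPKM, ratio 0.830). The sets share embryos and chains that vary together, so they are not independent.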

How the results depend on the processing

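Of 802 values under alternatives, 725 kept their direction and side of the threshold or, for counts, stayed within 1.5 times. Numbers of chains called were 5 for the Smchd1wt slope, 1 for the Smchd1matΔ slope, 1 for sex and 0 for each genotype comparison. With no filter they were 3 for the Smchd1wt and 0 for the Smchd1matΔ slope, with DESeq2 2 for the Smchd1matΔ slope, 2 for sex and 1 for genotype at 6 to 8 somites, in females alone 8 and 0, and at 7 to 11 somites alone 0 and 2. In Smchd1matΔ embryos 2 chains passed when the libraries with much ribosomal RNA were left out, which are also those left out there as holding other tissue. Leaving out 1 embryo at a time gave 3 to 8 chains for the Smchd1wt slope (8 without replicate 1 at 10 somites), 0 to 2 for the Smchd1matΔ slope and 1 to 2 for sex (2 without Smchd1wt replicate 2 at 8 somites or Smchd1matΔ replicate 1 at 10 somites). Sex within 1 genotype gave 0 calls in each. The share of all genes called in each of these fits is not given here, so changes in these counts are not read as results about collagen chains. The differences in slope of Col4a1 and Col4a2 ran from -0.0378 to 0.185 and from -0.0624 to 0.174 without 1 embryo, with both lowest values, opposite in sign, without Smchd1wt replicate 1 at 6 somites.

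For the lists of collagen processing, partner and receptor genes, 7 were called in Smchd1wt (14 in females, 0 at 7 to 11 somites, at most 14 without 1 embryo) and 5 in Smchd1matΔ embryos (1 in females, 1 with the libraries of much ribosomal RNA left out, 0 at 7 to 11 somites, at least 2 without 1 embryo), and 1 at 6 to 8 somites between genotypes with no filter. For marker lists 12 were called in Smchd1wt (22 with DESeq2, 23 in females, 1 at 7 to 11 somites, 19 without libraries holding other tissue, at most 24 without 1 embryo) and 5 in Smchd1matΔ embryos (8 with DESeq2, 9 at 7 to 11 somites, 3 to 9 without 1 embryo), and 4 at 6 to 8 somites between genotypes with no filter. The cause was not tested. Smaller fits hold fewer embryos, and the share of all genes called in each is not given here.

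Whether equal replicate numbers pair the embryos was not settled. Of 16 same-number pairs 4 had a correlation over 0.1 (range -0.27 to 0.54), a limit set without a reference distribution. With the replicate block 5 chains were called in Smchd1wt (Col4a1 gained at -0.16, edgeR adjusted p = 0.0484, and Col4a6 lost at adjusted p = 0.0502), 1 in Smchd1matΔ embryos, 0 for sex and 0 between genotypes, and of the lists 3 processing and 10 marker genes in Smchd1matΔ embryos. Depth limits the low chains: the shallowest libraries were Smchd1matΔ replicate 3 at 6 somites and Smchd1wt replicate 2 at 7 somites.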
